A study of Homo sapiens with 2 samples.

Results

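The genes described here are 10 genes of the actin cytoskeleton and its transcriptional control, listed by symbol: ACTB, ACTG1, CFL1, PFN1, ARPC2, ACTR2, ACTR3, MYH9, FLNA and SRF. They were chosen by symbol with the siYY1 against siControl differences of these arrays already known, so those differences count as the values that selected them and are given as a description, with no test. Of the 10, 8 were assigned a named probe set, each a single one, among 17687 named genes. ACTR2 and FLNA were not analysed here. All 8 passed the brightness minimum used for the comparison, a log2 value of at least 7.50 on the brighter array, as did 8750 protein-coding genes in all.

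Actin monomers assemble into polar filaments. Profilin loads monomers onto growing ends, the ARP2/3 complex starts branches, cofilin severs and disassembles old filaments, myosin II pulls on them and filamin crosslinks them. SRF is a transcription factor that binds the CArG box and drives many actin genes together with its cofactors MRTFA and MRTFB, which are held inactive by free actin monomers. SRF and ACTB are themselves among its targets. YY1, a zinc finger transcription factor, has been found to bind the CArG box of the skeletal alpha-actin promoter in chicken, where it competes with SRF.

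The study measured total RNA from 2 cultures of DLD-1, an established human colorectal adenocarcinoma line, on whole-transcript arrays. The siYY1 culture had been transfected with 1 siRNA against YY1 (Hs_YY1_1), and the siControl culture with the AllStars negative control siRNA. Both were transfected at 5 nmol/L with Lipofectamine RNAiMAX and harvested after 3 days. The study asked which transcripts respond to loss of YY1. With 1 array in each group, no difference below has a replicate error, and every value compares these arrays, not the conditions. A single siRNA sequence was used, and no named probe set was assigned to YY1, so the depth of the knockdown was not analysed here. Values are log2, a scale inferred from their range, and a difference is always siYY1 minus siControl. The number of arrays limits the precision. RNA came from whole cultures, so fewer cells of one state and less RNA per cell cannot be told apart. As the only measure of technical spread, the differences of separate probe sets of 1 gene lay a median of 0.38 and at most 0.98 apart. This gap rests on 20 genes with several probe sets, with no brightness minimum. It holds no spread between arrays or between cultures.

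The epithelial identity of the line was visible in bright probe sets for EPCAM, at 16.47 in siYY1 and 16.29 in siControl, and for KRT8, at 16.68 and 16.53 in the same order. Of 11 named epithelial markers, 10 passed the brightness minimum. Of these, 5 were above 0 and 5 below, from CLDN4 at -0.94 to ESRP1 at 0.81. In the values as deposited CLDN4 was past 2-fold, at -1.11. Of 9 named intestinal markers only CDX2, VIL1 and CDH17 did, and all were lower in siYY1, at -0.76, -0.51 and -0.14. VIL1, at 7.03 in siYY1, passed through siControl alone. Among 15 named muscle markers, 5 passed, namely ACTA1, ACTA2, ACTG2, SMTN and TNNI3. ACTA1 was at 10.95 in siYY1 and 10.84 in siControl. DES, MYH11, CNN1 and TAGLN were among those that did not pass. In the fibroblast list 1 of 10 named genes passed, COL1A2, with a difference of 0.21. In the leukocyte and blood list 2 of 9 passed and in the endothelial list 1 of 7. Past 2-fold in these marker lists after quantile normalization were HBA1 at 2.23, ENG at 1.33 and TNNI3 at 1.13. ENG, at 7.45 in siControl, passed the brightness minimum through siYY1 alone. The part of these 3 genes in the results below was not tested.

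Promoter sequences are given first, because the CArG box is the element that SRF recognises. RefSeq windows of GRCh38.p14, from 250 bases before to 50 bases after each annotated start, were found for 9 of the 10 genes, ACTB being the one without. A CArG box occurred upstream of SRF, ACTG1 and FLNA. The stretches that hold them are printed 5′ to 3′ on the strand of the gene, with the CArG boxes in capitals. They cover chr6:43171179-43171268 on the plus strand for SRF, chr17:81512850-81512929 on the minus strand for ACTG1 and chrX:154374685-154374764 on the minus strand for FLNA.
SRF: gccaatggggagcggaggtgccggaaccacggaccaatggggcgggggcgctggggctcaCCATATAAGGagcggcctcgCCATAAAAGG
ACTG1: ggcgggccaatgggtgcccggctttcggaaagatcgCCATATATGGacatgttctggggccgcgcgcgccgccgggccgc
FLNA: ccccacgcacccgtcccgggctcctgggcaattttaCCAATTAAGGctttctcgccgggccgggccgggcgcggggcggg
In the SRF window the boxes begin 30 and 10 bases before the start, and in ACTG1 and FLNA the box begins 94 bases before it. The SRF window also holds CCGGAA, a core of the sites bound by the ETS-family cofactors of SRF such as ELK1, beginning 70 bases before the start. CCGGAA was found for ACTR2 and CFL1 as well. The CArG box occurs in 1.29% of all 35116 windows and CCGGAA, searched on both strands, in 17.2%. Counted by gene, among the 7387 genes compared that have a window, they occur for 1.58% and 37.9%.

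The motifs associated with YY1 were searched on both strands as CCATNTT and AAGATGGCG, which overlap each other where both occur and can overlap a CArG box. CCATNTT was found for ACTR2, beginning 149 bases before its start, and for ACTR3, where a window of another start also held AAGATGGCG. The other 7 genes with windows held neither string. CCATNTT occurs in 15.6% of windows and AAGATGGCG in 1.75%. Counted by gene, they occur for 21.8% and 5.41% of the genes compared that have a window. Such a match is a description of the letters and does not show binding.

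Of the cytoplasmic actin genes, ACTB was lower on the siYY1 array and ACTG1 was nearly level. ACTB, which encodes beta-actin, was at 12.28 on the siYY1 array, against 13.75 on the siControl array. Its difference of -1.48 made it 2.79-fold lower in siYY1, and 3.18% of the genes compared were lower still. ACTG1, which encodes the closely similar gamma-actin, was at 17.12 in siYY1 and 17.30 in siControl, a difference of -0.18. That difference is smaller than the median gap between probe sets of 1 gene. Both ACTG1 values lie near the highest deposited value, 17.9, and whether differences are compressed there was not tested. The coding sequences of both genes are nearly alike and processed pseudogenes of them exist, so probe sets can share signal, and these values are uncertain as those of single genes.

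Muscle actins were measured as well. ACTA2, the smooth muscle alpha-actin, was at 7.78 in siYY1 and 7.33 in siControl, a difference of 0.45. It passed the brightness minimum through siYY1 alone. ACTA1 and ACTG2, the skeletal alpha- and enteric gamma-actins, differed by 0.11 and by less than 0.01. ACTC1 and ACTBL2 were too dim to be compared. ACTB was therefore the only one of the 5 actin genes compared that passed 2-fold.

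The monomer-binding and severing members stayed within 2-fold. PFN1, the widespread profilin, was at 16.00 in siYY1 and 15.44 in siControl, which is 1.47-fold higher at a difference of 0.56. CFL1, the non-muscle cofilin, was at 15.15 in siYY1 and 15.09 in siControl, and its difference of 0.07 turned to -0.09 in the values as deposited. Their paralogs lay below 0: CFL2, the muscle cofilin, was at 11.75 in siYY1 and 12.70 in siControl, a difference of -0.95, and PFN2 differed by -0.22. DSTN, the related depolymerising factor destrin, differed by -0.19.

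The ARP2/3 members were within 0.21 of 0. ARPC2, a subunit of the core that holds the complex together, was at 13.90 in siYY1 and 13.72 in siControl, a difference of 0.18. ACTR3, the actin-related protein ARP3, was at 14.45 in siYY1 and 14.25 in siControl, a difference of 0.20. Both differences were below the median gap between probe sets, and both became slightly negative, at -0.04 and -0.03, when the arrays were centred on their medians. ACTR3B, the second ARP3 gene, differed by 0.05.

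MYH9, the heavy chain of non-muscle myosin IIA, was at 12.91 in siYY1 and 12.41 in siControl, which is 1.41-fold higher at a difference of 0.50. MYH10, the heavy chain of myosin IIB, lay on the other side, at 12.08 in siYY1 and 12.81 in siControl, a difference of -0.73. MYH14, the third non-muscle heavy chain, was dim on both arrays.

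SRF was at 9.50 in siYY1 and 8.19 in siControl. It was 2.48-fold higher, at a difference of 1.31, and 3.71% of the genes compared were higher still. In the values as deposited the difference was 1.24. SRF and ACTB thus lay past 2-fold in opposite directions, SRF higher and ACTB lower on the siYY1 array.

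**Figure D1:**
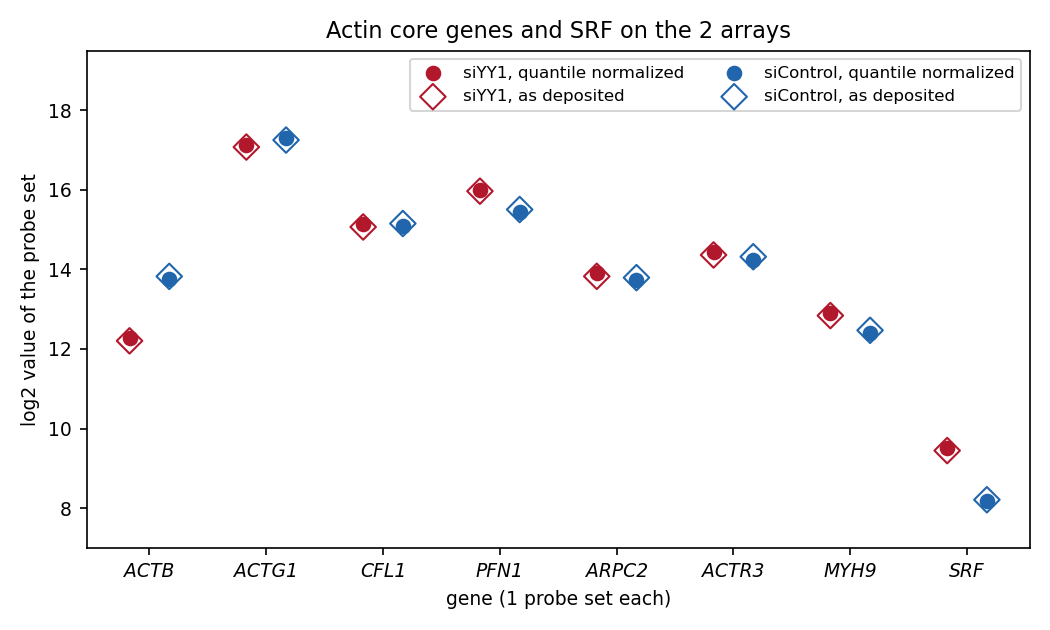
Log2 value of the single probe set of each of the 8 measured genes, with siYY1 in red left of siControl in blue; filled points are quantile normalized values and open diamonds the values as deposited, 1 array per group and no error bars. ACTB is lower in siYY1 (12.28 against 13.75 in siControl), SRF is higher (9.50 against 8.19 in siControl), and the other 6 genes differ by 0.56 or less. Heights of different genes are not comparable, since each probe set has its own response.

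Of the 8 measured genes, 1 was at least 2-fold lower (ACTB) and 1 at least 2-fold higher (SRF), shares of 12.5% each. Among all 8750 genes compared, 9.38% were lower by that much and 7.92% higher, so 1 gene of 8 on each side is near the background. The rule that listed the genes used this same contrast, and nothing further is read from these shares. The median difference of the 8 was 0.19, with 6 above 0 and 2 below, against a median of -0.01 over all genes compared. Nearest to 2-fold from below were PFN1 at 0.56 and MYH9 at 0.50. Bright genes varied less: in the brightest decile of the genes compared, which held ACTG1, CFL1, PFN1, ARPC2 and ACTR3, the differences had an SD of 0.55, and 4% were past 2-fold on the lower side and 3.2% on the higher side. In the decile below it, with ACTB and MYH9, the SD was 0.68 and 7.43% were at least 2-fold lower. SRF lay in the third decile from the dim end, where the SD was 0.77 and 8.69% were at least 2-fold higher.

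**Figure D2:**
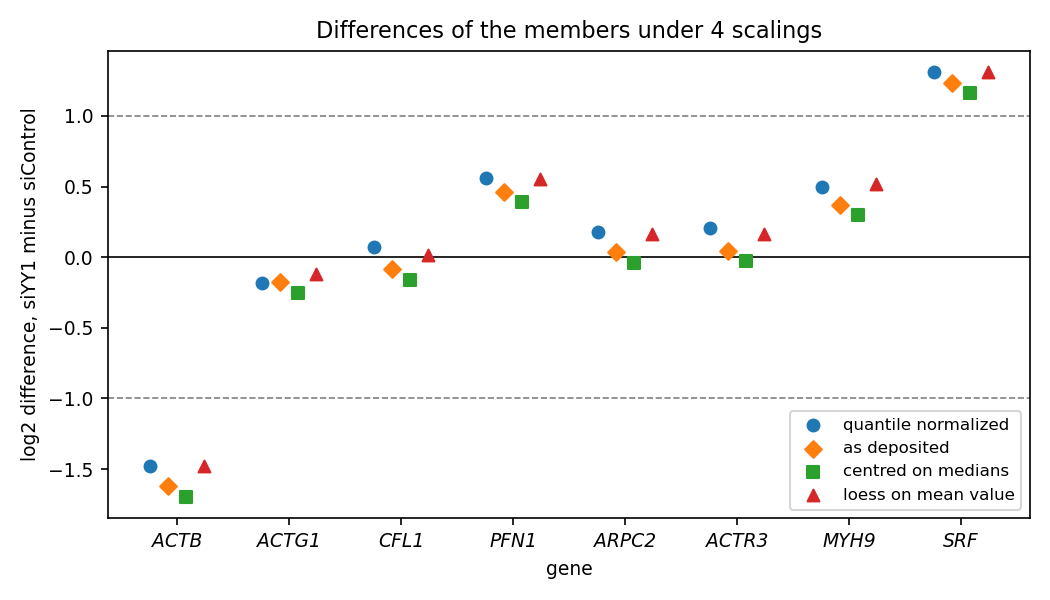
Log2 difference, siYY1 minus siControl, for each measured gene under 4 ways of scaling the arrays, with dashed lines at 2-fold. ACTB stays between -1.70 and -1.48 and SRF between 1.16 and 1.31, while CFL1, ARPC2 and ACTR3 lie on both sides of 0.

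Scaling shifted the centre of the differences, though not every gene by the same amount. The median of all genes compared was -0.01 after quantile normalization, -0.13 in the values as deposited and -0.20 after centring. The share of higher genes among those past 2-fold was 45.8%, 33.4% and 26.2% in that order. ACTB was the lowest and SRF the highest of the 8 genes under each scaling. Subtracting a median from every difference cannot change that order.

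The wider actin pathway was read from gene lists written from general knowledge. In the ARP2/3 complex, 8 of 10 subunit genes were compared, and 7 were above 0 with a median of 0.22, which was just below 0 after centring. The alternative subunits ARPC1A and ARPC1B lay on opposite sides. ARPC1A was at 14.63 in siYY1 and 13.34 in siControl, a difference of 1.28, while ARPC1B was at 12.19 in siYY1 and 13.09 in siControl, a difference of -0.89 that passed 2-fold in the values as deposited at -1.04. The remaining 6 subunit genes lay between 0.05 and 0.35. Among 18 activators and inhibitors of the complex, the genes of the WAVE, WASP and WASH groups, none passed 2-fold after quantile normalization, though WASHC5 did in the values as deposited at -1.06, and the list ran from WASHC5 at -0.93 to WASHC1 at 0.88, which has near-identical copies and is uncertain as a single gene.

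Formins and other factors that elongate unbranched filaments had more genes on the higher side. Of 13 compared, 5 were past 2-fold on the higher side and 1 on the lower side, against 7.92% and 9.38% of all genes compared, and the median was 0.72. DIAPH1, a diaphanous-related formin, was at 12.01 in siYY1 and 10.62 in siControl, a difference of 1.39. ENAH, which protects growing ends from capping, was at 12.94 in siYY1 and 11.62 in siControl, a difference of 1.32. FMN1 differed by 1.16 and FMNL2 by 1.13. In siControl FMN1, at 7.10, and SPIRE2, at 6.78, were below the brightness minimum and passed it through siYY1 alone. The list median of 0.72 is the difference of SPIRE2, and without a brightness minimum the median was 0.54. SPIRE1, at 1.06, was below 2-fold in the values as deposited. COBLL1 was the lower gene, at -1.19. Of these 13 genes, 10 were in the 2 deciles of widest genomic span, including all 5 that were higher. The median of these 10 was 0.84 and that of the other 3 was 0.72.

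Genomic span moved with the differences over the whole array. Among genes of the widest decile, 17.0% were past 2-fold on the higher side and 7.43% on the lower side, with a median of 0.22. For the narrowest decile these shares were 4% and 7.31%, with a median of 0.00. ACTB, ACTG1, CFL1 and PFN1 lay in the narrowest decile, SRF in the second, ARPC2 in the sixth, ACTR3 in the eighth and MYH9 in the ninth. Within the lists, the genes of the 2 widest deciles did not always lie higher. For crosslinkers and membrane linkers the median of those 12 was -0.01, against 0.32 for the other 10. For capping and severing it was -0.24 against -0.15, for cytoskeletal SRF targets -0.32 against -0.04 and for ARP2/3 subunits (1 gene) 0.05 against 0.24. It was higher for the formin, both myosin, monomer-binding, ARP2/3 activator and SRF cofactor lists. The part of span in the differences of the actin lists was not tested.

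**Figure D3:**
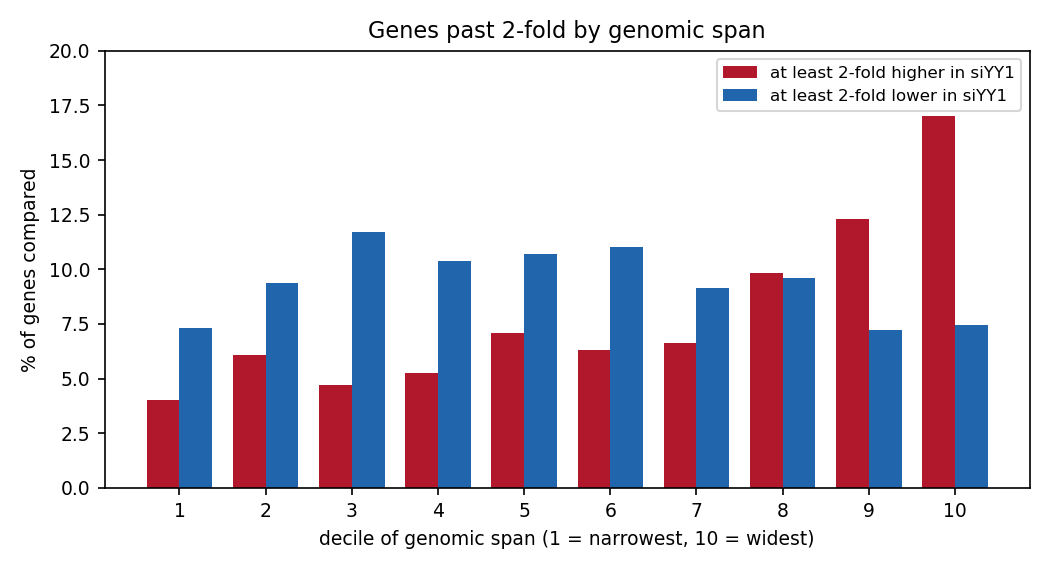
Share of the genes compared that were past 2-fold in siYY1, higher in red and lower in blue, by decile of genomic span, 875 genes in each. The share of higher genes is 4% in the narrowest decile and 17.0% in the widest, while the share of lower genes lies between 7.20% and 11.7%.

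Myosin II and its regulators gave 2 of 13 genes at least 2-fold higher, none lower by that much, and a median of 0.42. These are 15.4% and 0%, against 7.92% higher and 9.38% lower over all genes compared. With 13 genes, these shares rest on few genes. The higher genes were the kinases CDC42BPA, at 11.87 in siYY1 and 10.38 in siControl, and ROCK2, at 13.39 in siYY1 and 12.08 in siControl, which phosphorylate or control the phosphorylation of the myosin light chain. CDC42BPA differed by 1.49 and ROCK2 by 1.31, and both are in the widest decile of genomic span. ROCK1 differed by 0.24. The light chain genes MYL6, MYL12A and MYL12B lay between -0.07 and 0.25, and MYL6B and MYL9 were at 0.61 and 0.71. The siControl value of MYL9, 7.12, was below the brightness minimum. Among 12 unconventional myosins, which carry cargo or link membranes to actin, MYO5A at 1.36, MYO18A at 1.14 and MYO1D at 1.09 were past 2-fold. That is 25% higher and 0% lower, against 7.92% and 9.38% of all genes compared. MYO1C, MYO19 and MYO1E lay between -0.98 and -0.95. In the values as deposited the balance turned, with 2 past 2-fold on the higher side, without MYO1D, and 3 on the lower side, namely MYO1C, MYO19 and MYO1E. Of the 12, 10 lay in the 2 deciles of widest span, with a median of 0.71 and all 3 higher genes among them, and the other 2 had a median of -0.97.

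FLNA itself was not analysed here. Among the 22 other crosslinkers and membrane linkers compared, 6 were past 2-fold and all of these were higher, against 7.92% higher and 9.38% lower over all genes compared, and the median was 0.25. The spectraplakin MACF1, which joins actin to microtubules, was at 10.90 in siYY1 and 8.78 in siControl, a difference of 2.12. SPTAN1, the alpha chain of non-erythroid spectrin, was at 13.17 in siYY1 and 11.28 in siControl, a difference of 1.89. UTRN, the dystrophin relative utrophin, differed by 1.46, and ZYX, a focal adhesion protein that responds to filament strain, by 1.34. DST and PLEC, of the plakin family, were at 1.28 and 1.17. The alpha-actinins ACTN1 and ACTN4 were at -0.71 and 0.10, and ezrin, EZR, was at -0.70.

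Genes that turn filaments over or cap them held genes past 2-fold on both sides. CORO1C, a coronin that acts with cofilin on filaments, was at 12.73 in siYY1 and 14.20 in siControl, a difference of -1.46, and CORO1B differed by -1.12. These were the 2 of 19 monomer-binding and turnover genes past 2-fold, or 10.5%, near the 9.38% lower over all genes compared. They were joined by CFL2 in the values as deposited at -1.09. The median of that list, 0.04, was -0.09 in the values as deposited. Among 15 capping and severing genes, with a median of -0.24, EPS8 was at -1.30, joined past 2-fold by CAPZA2 at -1.01 in the values as deposited. The gelsolin relatives SVIL and FLII were at 1.42 and 1.22. After quantile normalization 6.67% of this list were past 2-fold lower and 13.3% higher, near the 9.38% and 7.92% of all genes compared. GSN differed by -0.24 and the capping protein genes CAPZA1 and CAPZB by -0.20 and -0.28. No gene of the tropomyosin, calponin and transgelin list, with 5 compared, passed 2-fold. That list ran from CNN2 at -0.53 to CNN3 at 0.25.

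**Figure D4:**
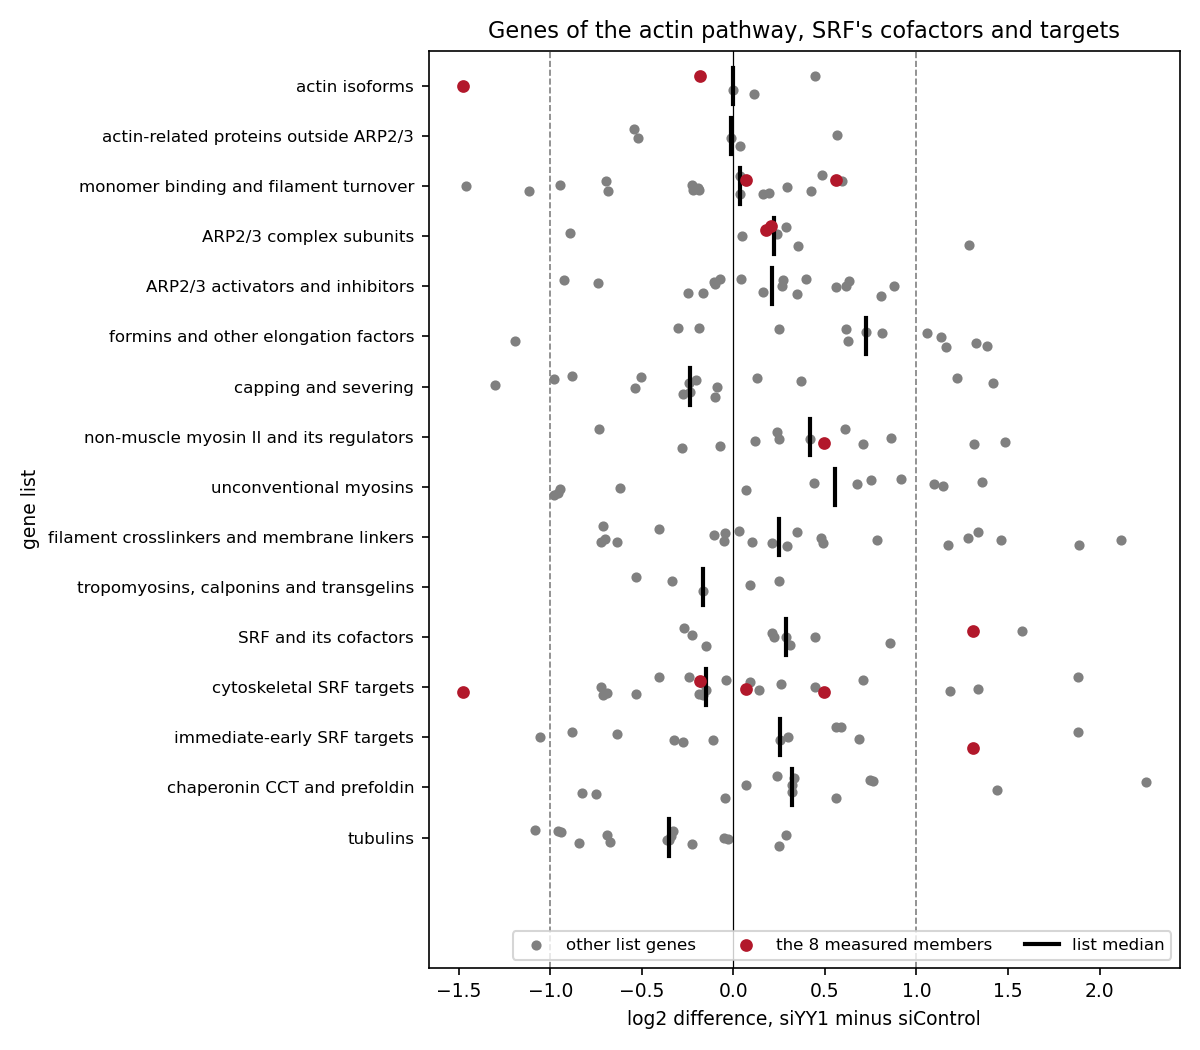
Log2 difference, siYY1 minus siControl, for each gene compared in 16 lists, with the measured members in red, other genes in grey, a black bar at each list's median and dashed lines at 2-fold. The median is 0.72 for formins and other elongation factors, or 0.54 without a brightness minimum, and -0.15 for cytoskeletal SRF targets. A gene in several lists appears in each, and vertical scatter within a row carries no value.

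The DNA-binding partners and MRTF cofactors of SRF stayed within 2-fold. MRTFA was at 8.66 in siYY1 and 8.88 in siControl, a difference of -0.23, and MRTFB at 11.23 in siYY1 and 11.50 in siControl, a difference of -0.27. ELK1 and ELK4, which bind SRF at immediate-early genes, were at 0.21 and 0.22. MICAL2, an enzyme that oxidises actin and thereby promotes SRF activity in the nucleus, was at 11.71 in siYY1 and 10.13 in siControl, a difference of 1.58. Among 11 genes of this list compared, SRF and MICAL2 were the ones past 2-fold. That is 18.2% higher and 0% lower, against 7.92% and 9.38% of all genes compared.

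Known targets of SRF lay on both sides of 0. Of 23 cytoskeletal targets compared, a list that includes ACTB, ACTG1, CFL1 and MYH9, 3 were past 2-fold on the higher side and 1 on the lower, with a median of -0.15. These are 13% and 4.35%, near the 7.92% and 9.38% of all genes compared. The higher genes were CCN1, a secreted matrix protein, at 10.02 in siYY1 and 8.13 in siControl (difference 1.88), ZYX at 1.34 and the integrin subunit ITGA5 at 1.19, and the lower was ACTB. VCL, LIMA1 and ACTN1 lay between -0.72 and -0.41. CCN2 differed by 0.26. Among 13 immediate-early targets, a list that holds SRF itself, CCN1 and SRF were at least 2-fold higher and MCL1, an anti-apoptotic protein, was lower at -1.06. These are 15.4% and 7.69%, against 7.92% and 9.38% of all genes compared. EGR1 differed by 0.59, and FOSL1 by -0.88.

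Genes with a CArG box in their promoter window were counted over the whole array. A window was found for 7387 of the genes compared, and 117 of these held the box. Of the 117, 15 or 12.8% were past 2-fold on the higher side and 7 or 5.98% on the lower, with a median of 0.06. Of the 7270 without it, these shares were 7.5% and 9.77%, with a median of -0.02. These groups were chosen after the differences were known and the contrast between them was not tested. Among the higher genes with the box, MIDEAS and TICRR passed the brightness minimum through siYY1 alone, at 7.07 and 7.28 in siControl. SRF, a listed gene, is another of the higher genes. Among the lower genes with the box, DOLPP1, at 6.73 in siYY1, passed through siControl alone. The 117 held SRF at 1.31 and ACTG1 at -0.18 among the 10 genes. They also held 6 cytoskeletal SRF targets, ACTG1 with ACTN1 at -0.71, TGFB1I1 at -0.69, CNN2 at -0.53, FHL2 at -0.15 and TPM4 at 0.09, of which TPM4 alone was above 0. Other list genes with the box included ROCK2, SVIL and EGR1 above 0 and MYO1E at -0.95 and TUBG2 at -0.84. For AAGATGGCG, 400 genes had a median of -0.02, with 6.75% past 2-fold on the higher side and 11.8% on the lower, against -0.02, 7.63% and 9.59% for the 6987 without it. For CCATNTT, 1608 genes had a median of -0.03, with 7.15% and 10.5%, against -0.02, 7.7% and 9.48% for the 5779 without it. For CCGGAA, which the SRF window holds, 2800 genes had a median of -0.09, with 6.14% and 9.93%. The 4587 without it had 0.03, 8.46% and 9.57%.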

How the data were processed

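The authors deposited 1 processed log2 value per probe set for each of 2 whole-transcript arrays labelled with biotin, per the labels' protocols. The sources used here do not state the software, the background correction or the normalization. The log2 scale was inferred from the values, which run from 2.51 to 17.9. At the 25th, 50th and 75th percentiles siYY1 differed by 0.18, 0.07 and -0.13, so all 21448 probe sets were quantile normalized. The platform annotation named 1 gene for 17709 probe sets and none for 3739. Symbols, gene types and spans came from RefSeq GRCh38.p14 through the gene ID, which matched every named probe set. Probe sets of the 20 genes with several were averaged. Protein-coding genes with a higher value at or above the median of all named genes were compared, and counted at 2-fold. No test was possible with 1 array per group.

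A further gene list is not reported here. Members and lists were chosen with earlier results of these data known. The text names all 10 members, the 4 list genes farthest past 2-fold on each side, otherwise a list's extremes, and paralogs of members. Further genes, such as the remaining crosslinkers and formins past 2-fold, were named after their values were seen. A comparison by protein length had been intended and was replaced by genomic span, since protein lengths were not used here. Alternatives were deposited values, median centring, loess, other brightness minimums, 1.5-fold and 3-fold, the brightest probe set and list means. The computation was tested on simulated data. Python 3.11.15, numpy 2.4.6, pandas 2.3.3, statsmodels 0.14.6 and matplotlib 3.10.9 were used.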

Additional observations from a re-analysis of the deposited data

How the results depend on the processing

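The differences of the 8 measured genes, their counts at 2-fold, their median and the medians of 22 lists were recomputed under the alternatives. Of 220 recomputed values, 213 stayed within the median gap between probe sets (0.38), or within 1.5 times for counts. Many of these could not move. Each of the 8 genes has 1 probe set, so neither the brightest probe set nor another brightness minimum could change its difference. The brightest probe set also left every list median as it was. The gap is wider than most list medians, so a change of sign could count as staying, and the tally is no measure of stability. At 3-fold, 0 members were lower and 0 higher. With the brightness minimum at the 75th percentile, 0 members were at least 2-fold higher, because SRF was then too dim to be compared. Without a brightness minimum, the medians were -0.026 for unconventional myosins, -0.028 for intestinal markers, 0.34 for leukocyte and blood markers and 0.14 for endothelial markers, since dim genes then entered these lists. With the minimum they were 0.56, -0.51, 0.75 and 1.33 in that order. Those of the marker lists then rested on 3, 2 and 1 genes. Over all genes compared, 693 were at least 2-fold higher and 821 lower, against 441 higher and 1244 lower after centring. The medians of 4 lists changed sign with the scaling, all between -0.16 and 0.22: monomer binding and turnover, ARP2/3 subunits, epithelial markers and muscle markers. No paired analysis was possible because each group has 1 array. Values near the brightness minimum, such as those of FMN1 and SVIL in siControl, limit the size of a difference that can be read.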

Other observations

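Other cytoskeletal and folding genes gave values outside the actin pathway. Of 15 tubulin genes compared, 13 were below 0 with a median of -0.35. TUBB6, at 10.16 in siYY1 and 11.24 in siControl, was the one at least 2-fold lower. That is 6.67%, near the 9.38% of all genes compared. In the values as deposited TUBG1 and TUBB8 were at least 2-fold lower too, which made 3. The chaperonin CCT and prefoldin fold newly made actin and tubulin, and 10 of their 13 genes compared were above 0, with a median of 0.32. The prefoldin subunit PFDN5 was at 14.79 in siYY1 and 12.54 in siControl, a difference of 2.25, and PFDN4 was at 1.44. These 2 are 15.4% of the 13 genes, against 7.92% higher over all genes compared. The CCT subunits CCT7 and CCT2 were at -0.83 and -0.75. Actin-related proteins of dynactin and of chromatin remodellers, with 5 genes compared, lay between ACTR6 at -0.55 and ACTR10 at 0.57.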
